A study of Mus musculus with 3 samples.

Results

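The genes that encode the proteins of the cytosolic ribosome were examined in ChIP-Seq region lists from mouse embryonic stem cells (ESCs). Members were the protein-coding genes of the GENCODE vM1 annotation with more than 1 exon whose symbol is Rpl or Rps followed by digits and at most 1 letter (a, A, x or X), together with Rplp0, Rplp1 and Rplp2. The rule found 75 genes among 19508 multi-exon protein-coding genes on chromosomes 1 to 19 and X. Of these, 45 encode proteins of the large subunit, 3 of them the proteins of the ribosomal stalk, and 30 encode proteins of the small subunit. They lay on 19 chromosomes, with 14 on chromosome 7. The rule used names and exons only and none of the values below, although the family was chosen with earlier results of these data known.

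There were 3 libraries, 1 per group, and no replicates. In the first, ESCs expressed wild-type H2A.Z fused to yellow fluorescent protein (H2A.Z-WT). In the second they expressed the acidic patch mutant with the same tag (H2A.Z-AP3), in which the substitutions G92N, D97N and S98K replace residues of H2A.Z by those of H2A. Both were transgenic derivatives of KH2 ESCs in which a CMV promoter under a doxycycline-responsive system drove the transgene. Expression was induced with 1 µg/ml doxycycline and YFP-positive cells were sorted. Hairpins against the 3′ untranslated region of the endogenous transcript were also introduced into both lines, but whether the cells used for ChIP-Seq carried them is not given in the sources used here. Chromatin of both was immunoprecipitated with an anti-GFP antibody, so untagged H2A.Z was not measured. The third library was made with an H3K27me3 antibody, which recognises histone H3 carrying 3 methyl groups on lysine 27, and its label gives the genotype as WT. All 3 labels give the strain as V6.5, and all cells were grown without feeder cells for the last passage.

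H2A.Z is a variant of histone H2A that is placed in nucleosomes on either side of transcription start sites. H3K27me3 is deposited by Polycomb complexes at silent developmental genes. Ribosomal protein genes are among the most highly transcribed genes of growing cells. Their promoters are rich in CpG and carry motifs for ETS factors and YY1, and transcription typically starts at a cytosine inside a run of pyrimidines (the oligopyrimidine start), through which growth signals control translation of the mRNA. Most mammalian ribosomal protein genes have several processed copies elsewhere in the genome, and many carry small nucleolar RNA (snoRNA) genes in their introns.

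Each library is known here as 2 lists of enriched regions on the mm9 assembly, called at P thresholds of 1e-09 and 1e-12. The looser list was used unless stated. The lists give the start and end of each region with no height or read count, so the depth of the libraries is unknown. A gene was counted as carrying a region when at least 1 bp of one lay within 2 kb of any of its annotated starts. Wilson intervals (95%) are over genes or regions and cover counting error only. No test between libraries was possible, since 1 library per group leaves no measure of the spread between cultures. As a check of the cells, H3K27me3 was called at 10 of 10 lineage genes that are silent in ESCs and at 1 of 8 ESC genes (Esrrb), while 4 of 6 fibroblast genes that would be active in feeder cells carried it.

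Starts with the oligopyrimidine motif (C at the start followed by at least 3 pyrimidines) are shown first, because this motif is the usual start of these genes and because, within 1 kb, H2A.Z-WT was called upstream of such starts and not downstream. Among the 75 genes, 17 had an annotated protein-coding start with this motif (22.7%), against 6.78% of all multi-exon genes and 4 of 76 mitochondrial ribosomal protein genes. This counts any such start, and members had a median of 4 annotated starts, against 2 over all multi-exon genes. At the 1 start per gene used for position below, the motif was present at 4 of the 75 (5.33%), against 3.17% of all multi-exon genes. Each sequence below is the 15 bases before the start and the 15 bases from the start on, 5′ to 3′ on the gene's strand in mm9, with the pyrimidine run in capitals. The first 4 genes carried an H2A.Z-WT region within 1 kb upstream of the start printed, and the last 4 carried none.
Rpl13a, chr7:52384093-52384122, minus strand: gcgacaagaCCTCCTCCTTTCCCaggcggc
Rpl14, chr9:120480617-120480646, plus strand: cagggcgggCCCTCTCTCTTCTCgctgagc
Rps2, chr17:24857040-24857069, plus strand: ccgcggcgCCTCCCTCTTCTTCTTCTTCgg
Rps18, chr17:34092594-34092623, minus strand: cgtcacttccgCTCTCTCTTCCacaggagg
Rpl27, chr11:101303597-101303626, plus strand: gcagtgcccgaCCCTCCCTgacgagctcct
Rpl32, chr6:115758751-115758780, minus strand: gcgccgccgccgCCTCTTCCTTCTTCCTCg
Rps3, chr7:106632147-106632176, minus strand: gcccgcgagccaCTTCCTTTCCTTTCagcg
Rps24, chr14:25309925-25309954, plus strand: cggcagtgagcggTCCTCTTTTCCTCCTCT

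The pyrimidine run at these 8 starts was between 8 bases long, at Rpl27, and 20 bases long, at Rps2. Among these 8, the runs overlapped in length, with 11 to 20 bases where H2A.Z-WT lay upstream and 8 to 17 bases where it did not. The 8 genes were chosen for printing after their values were seen.

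The first comparison asked at how many of these genes each library called a region. H2A.Z-WT was called at 31 of the 75 ribosomal protein genes (41.3%, interval 30.9 to 52.6), against a background of 67.2% over all multi-exon genes. H2A.Z-AP3 was called at 10 (13.3%, 7.41 to 22.8), against a background of 25.5%. H3K27me3 was called at 2 (2.67%, 0.734 to 9.21), against a background of 19.6%. In each library the share of ribosomal protein genes lay below the background, and with these settings the background lay outside the interval of the members. For H2A.Z-AP3 this did not hold under other settings. In the 1e-12 lists the share was 12% (6.44 to 21.3) against 20.6%, and with 1 start per gene it was 13.3% against 22.4% or 22.7%, values inside the intervals. Without chromosomes 6 and 8 it was 13.9% against 22.6%.

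Mitochondrial ribosomal protein genes, which encode the ribosome of the organelle, had a higher H2A.Z-WT share. Of 76 such genes 65 carried H2A.Z-WT (85.5%, 75.9 to 91.7) and 22 carried H2A.Z-AP3 (28.9%, 19.96 to 39.96), whereas 1 carried H3K27me3. More of them had the start of another gene within 2 kb (44.7%, against 21.3% of the cytosolic family), and among the 42 without one 35 carried H2A.Z-WT (83.3%). The intervals of both families did not overlap for H2A.Z-WT and overlapped for H2A.Z-AP3 and H3K27me3.

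**Figure D1:**
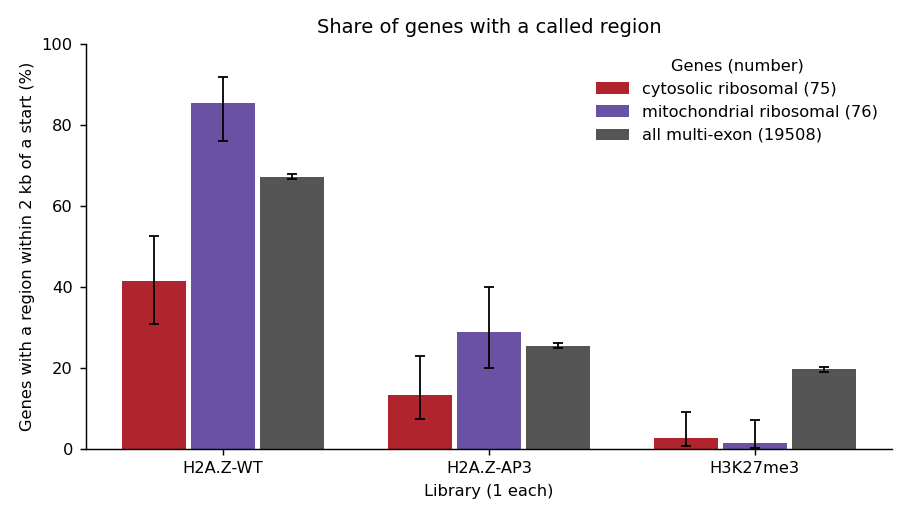
Bars give the percent of genes with a region of the 1e-09 list within 2 kb of a start, for each library and for 75 cytosolic ribosomal protein genes, 76 mitochondrial ribosomal protein genes and all 19508 multi-exon genes, with 95% Wilson intervals over genes. For H2A.Z-WT the cytosolic family stands at 41.3%, below both other bars.

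Within the ribosome, 21 of 45 large subunit genes (46.7%, 32.9 to 60.9) and 10 of 30 small subunit genes (33.3%, 19.2 to 51.2) carried H2A.Z-WT. H2A.Z-AP3 was called at 8 large subunit and 2 small subunit genes. The intervals of both subunits overlapped for each library. Of the stalk proteins, which recruit translation factors to the ribosome, Rplp2 carried 450 bp of H2A.Z-WT and 200 bp of H2A.Z-AP3, while Rplp0 and Rplp1 carried no region in any list.

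The combinations were as follows. In all, 42 of the 75 genes had no region in any of the 3 libraries. H2A.Z-WT alone was called at 22 genes, H2A.Z-WT with H2A.Z-AP3 at 7, H2A.Z-WT with H3K27me3 at 1 (Rpl13a), all 3 together at 1 (Rpl7), and H2A.Z-AP3 alone at 2 (Rps12 and Rpl36a). The large subunit genes with no region included Rpl6, Rpl7a, Rpl9, Rpl10, Rpl13, Rpl17, Rpl19, Rpl21, Rpl23a, Rpl24, Rpl27, Rpl27a, Rpl28, Rpl30, Rpl31, Rpl32, Rpl34, Rpl35a, Rpl36, Rpl38, Rplp0 and Rplp1. Those of the small subunit included Rps3, Rps4x, Rps6, Rps9, Rps13, Rps15, Rps15a, Rps19, Rps20, Rps21, Rps23, Rps24, Rps26, Rps27, Rps27a and Rps28. Among them are Rps6, the protein phosphorylated by S6 kinase, and Rps19, the protein most often mutated in Diamond-Blackfan anemia.

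The bases covered within the windows were few. The median H2A.Z-WT coverage of a ribosomal protein gene was 0 bp (quartiles 0 and 225), against 375 bp over all multi-exon genes and 475 bp over mitochondrial ribosomal protein genes. Windows were of like size, with medians of 4433, 4263 and 4241 bp. Among the 31 genes with H2A.Z-WT the covered length ran from 50 to 650 bp with a median of 250 bp, against a median of 650 bp over all genes with a region. The 38 H2A.Z-WT regions at ribosomal protein genes measured 50 to 575 bp (median 225), compared with a median of 400 bp for the 20633 regions at all multi-exon genes.

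The longest H2A.Z-WT coverage was at Rpl7, with 650 bp in 2 regions. Its 425 bp of H2A.Z-AP3 and 425 bp of H3K27me3 were also the longest of the family. Rpl37a followed with 600 bp in 2 regions, 1 on each side of its start. Rpl11, whose protein binds Mdm2 when ribosome assembly is disturbed, had a single region of 575 bp (chr4:135583926-135584500). That region lay in an exon about 25095 bp from the start used for position, near another annotated start toward the 3′ end of the gene. Rpl13a had 525 bp in 2 regions. Rpl26, Rps18 and Rps25 each had 500 bp in 1 region upstream of the start, and those of Rps18 and Rps25 lay in exons of the neighbours Vps52 and Trappc4.

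At the other end, Rpl3 and Rpl5 had 50 bp each, Rps3a 75 bp, Rpl22 100 bp and Rps2 125 bp. Rpl5 is the partner of Rpl11 in the complex that carries 5S ribosomal RNA. The shortest region in the list at any multi-exon gene was 25 bp, the size of 1 bin, so 50 bp is 2 bins.

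**Figure D2:**
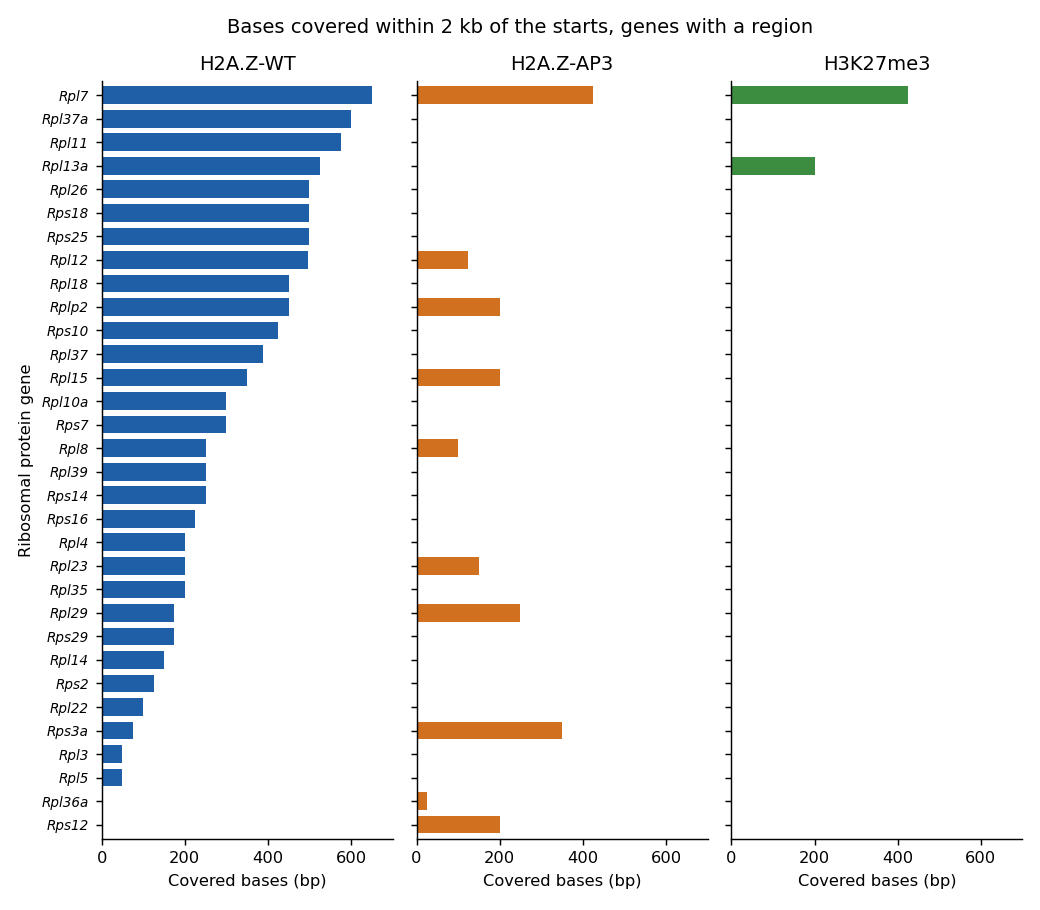
Each row is a ribosomal protein gene with a region in any library (32 of the 33 are drawn), ordered by H2A.Z-WT coverage, and the bars give the bases covered within 2 kb of its starts in the 3 libraries. The longest is Rpl7 with 650 bp of H2A.Z-WT, and 2 genes at the foot have H2A.Z-AP3 without H2A.Z-WT.

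The next comparison asked where the regions lay. For each gene 1 start was used, that shared by most protein-coding transcripts or, in a tie, the most upstream, which was the most upstream protein-coding start in 75 of 75 ribosomal protein genes. Within 1 kb on either side of it, H2A.Z-WT covered 6157 bp upstream and 1692 bp downstream over the 75 genes. The upstream share was thus 78.4%, against 36.4% over all multi-exon genes and 37.2% over mitochondrial ribosomal protein genes, where the larger part lay downstream. H2A.Z-WT was found upstream at 26 ribosomal protein genes and downstream at 10, with 7 in both counts. These are 34.7% and 13.3% of the 75 genes, against 43.8% and 53.7% over all multi-exon genes. Mean coverage per gene was 82.1 bp upstream and 22.6 bp downstream, against 137.7 and 240.9 bp over all multi-exon genes. Both sides thus lay below the values of all genes, the downstream side by more. Of the 29 genes with H2A.Z-WT on either side 19 had it upstream only (65.5%), compared with 11.05% of such genes in the whole set and 6.25% of mitochondrial ribosomal protein genes.

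H2A.Z-AP3 lay upstream at 10 genes (13.3%, against 11.7% over all multi-exon genes) and downstream at 2 (2.67%, against 12.9%). Of its covered bases 85.8% were upstream, against 44.9% over all multi-exon genes. For small subunit genes the upstream share of H2A.Z-WT was 89.3%, and for large subunit genes it was 72.8%.

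The profile over 25-bp bins showed the same order. At ribosomal protein genes H2A.Z-WT coverage was highest from 175 to 150 bp before the start, where 19.7% of genes were covered, and its highest value downstream was 8.96%. Over all multi-exon genes the highest value was 38.9%, from 175 to 200 bp after the start, and the upstream side did not exceed 27.2%. At mitochondrial ribosomal protein genes 74.9% were covered from 150 to 175 bp after the start. Of the 26 ribosomal protein genes with H2A.Z-WT over or within 1 kb upstream of the start, the region included the start itself in 6 (23.1%), against 64.5% of such genes in the whole set and 83.0% of mitochondrial ribosomal protein genes. In the other 20 the median gap from the start to the near edge of the region was 152 bp (range 8 to 814).

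**Figure D3:**
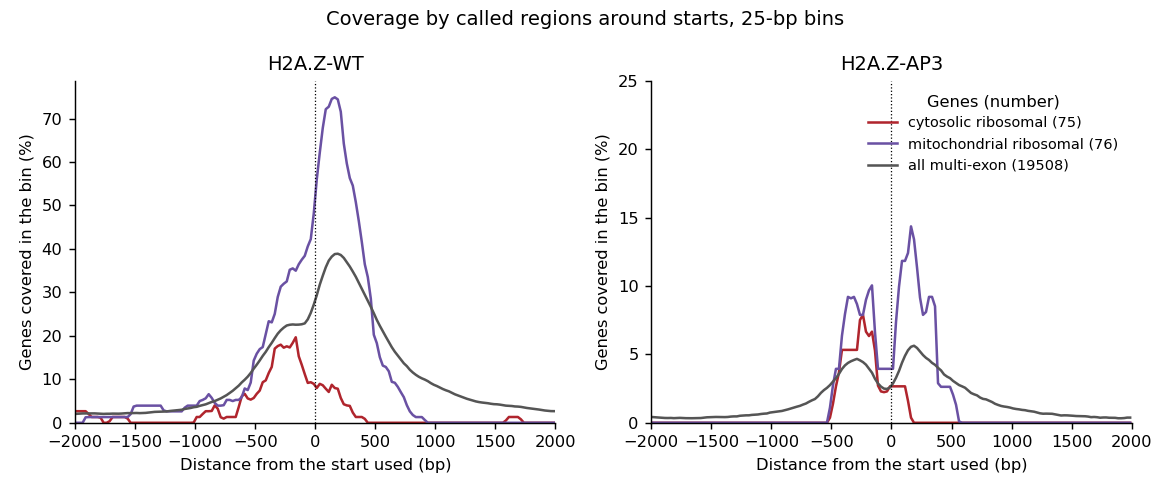
Lines give the percent of genes whose position is covered by a called region in bins of 25 bp from 2 kb before to 2 kb after the start used, on the left for H2A.Z-WT and on the right for H2A.Z-AP3, with axes of different height. For H2A.Z-WT the cytosolic family peaks at 19.7% before the start, whereas the other lines peak after it.

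The same count was made on other starts, because the start used lay up to 7680 bp upstream of the oligopyrimidine start (at Rpl13a). The start used carried the oligopyrimidine motif itself at 4 of the 75 genes. At the 17 genes placed on their oligopyrimidine start, H2A.Z-WT covered 1400 bp in the upstream kb, in 5 genes, and 0 bp in the downstream kb, an upstream share of 100% against 40.01% at the 1322 multi-exon genes with such a start. The near edge of the region lay 157 bp before the start in Rpl14, 193 bp in Rps18, 280 bp in Rps2 and 369 bp in Rpl13a. These 4 starts are among those printed above, and no base of any pyrimidine run lay in an H2A.Z-WT region. In Rps10 the oligopyrimidine start lay 1389 bp downstream of the start used, and its nearest H2A.Z-WT region ended 1341 bp before that start. Among 17 genes with a single annotated start the upstream share was 83.3%.

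Some regions lay close to other genes. Another protein-coding gene had a start within 2 kb of 16 ribosomal protein genes, and H2A.Z-WT was called at 10 of those 16 (62.5%, 38.6 to 81.5), against 78.5% of the multi-exon genes with a neighbour, a value inside the interval. It was called at 21 of the 59 without such a neighbour (35.6%, 24.6 to 48.3), against 64.9% of the multi-exon genes without one. Of the 38 H2A.Z-WT regions 7 lay nearest to the start of another gene, namely Zwilch, Rdh10, Lrsam1, Flt3l, Sphk2 in 2 cases, and Trappc4. With only regions nearest to the gene's own start counted, the upstream share was 75.3%. Among the 59 genes without a neighbour it was 72.7%, against 33.8% over the multi-exon genes and 24.1% over the mitochondrial ribosomal protein genes without one. All 10 H2A.Z-AP3 regions lay nearest to a start of the ribosomal protein gene itself.

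**Figure D4:**
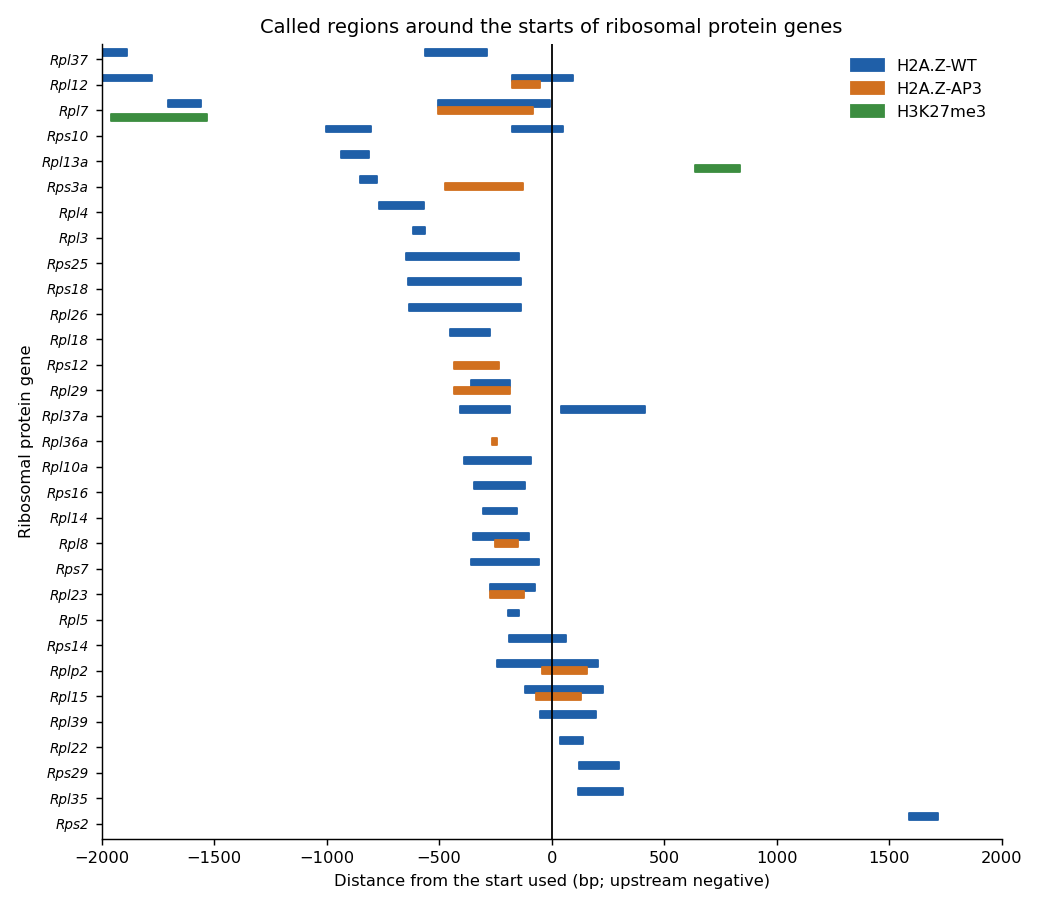
Each row is a ribosomal protein gene with a region within 2 kb of the start used (31 of the 32 are drawn), and bars show the called regions to scale by distance from that start (vertical line, upstream negative), blue for H2A.Z-WT, orange for H2A.Z-AP3 and green for H3K27me3. Most bars end before the line, and regions that begin after it are seen in few genes.

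Sequence shared with processed copies was examined next. In this annotation 151 single-exon loci are named as copies, of which 29 had H2A.Z-WT (19.2%) and 7 had H2A.Z-AP3 (4.64%) within 2 kb of a start. The share of exact 32-base words that occur once in mm9 was measured every 10 bp over the kb on each side of the start used. Its mean was 91.7% upstream and 89.7% downstream of ribosomal protein genes, against 91.0% and 92.3% over all multi-exon genes and 94.9% and 96.9% over mitochondrial ribosomal protein genes. The medians were 94% and 90%, against 100% on both sides over all multi-exon genes. Under 90% of words were unique upstream at 28 of the 75 genes and downstream at 37, against 3994 and 2881 of the 19508. At the 24 ribosomal protein genes with at least 90% unique words on both sides, H2A.Z-WT was called at 12 (50%). The share was 75.2% of the 14486 multi-exon genes with such sequence. At the 24 genes 86.3% of the bases covered by H2A.Z-WT lay upstream, against 37.3% at the 14486. Both values thus differed from those of all genes in the same direction as over the 75. How reads with several matches were treated is not given in the sources used here, and its part in the result was not tested.

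The promoters were rich in CpG. The median number of CpG dinucleotides within 500 bp of the start used was 65 (range 9 to 90), against 46 over all multi-exon genes and 55.5 over mitochondrial ribosomal protein genes. Over all multi-exon genes H2A.Z-WT was called at 37.8% of those with fewer than 25 CpG and at 81.5% to 83.5% of the classes above. Among ribosomal protein genes with 50 to 74 CpG it was called at 19 of 45 (42.2%, 29.0 to 56.7), against 83.5%, and among those with 75 to 99 CpG at 5 of 18 (27.8%, 12.5 to 50.9), against 81.5%. In both classes, and in that of 25 to 49 CpG (5 of 10, 23.7 to 76.3, against 83.0%), the value of all genes lay above the interval of the members. The 2 ribosomal protein genes with under 25 CpG at the start used, Rps2 and Rps10, both had H2A.Z-WT, and their oligopyrimidine starts lay 1994 and 1389 bp downstream of that start.

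**Figure D5:**
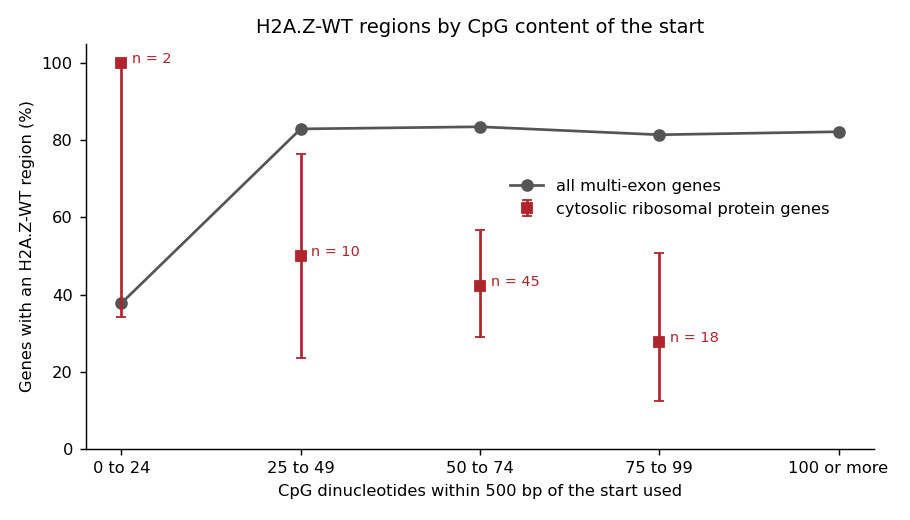
Squares give the percent of ribosomal protein genes with an H2A.Z-WT region, with 95% Wilson intervals over genes and the number of genes, by the number of CpG dinucleotides within 500 bp of the start used, and circles give the same percent over all multi-exon genes. From 25 CpG upward the circles stay above 80% and the squares lie between 27.8% and 50%.

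Motifs were searched as letters on both strands from 250 bp before to 50 bp after the start used. The ETS letters CCGGAAG were present at 21 ribosomal protein genes (28.0%), against 11.97% of all multi-exon genes. The YY1 letters AAGATGG were present at 9 (12%), against 6.60%. GGGCGG, the core of Sp1 and Klf sites, was present at 46.7%, against 48.4%, and TATAAA at 12%, against 10.99%. At mitochondrial ribosomal protein genes the shares of CCGGAAG and AAGATGG were 35.5% and 18.4%. Of the 24 occurrences of CCGGAAG at ribosomal protein genes, 1 lay in an H2A.Z-WT region (4.17%), against 35.6% of the 2829 occurrences at all multi-exon genes, and none lay in an H2A.Z-AP3 region. That 1 was at Rplp2, where the region extends across the start. Both shares include matches at genes without a region, and 10 of the 21 ribosomal protein genes with CCGGAAG had H2A.Z-WT. Of the 9 occurrences of AAGATGG, 2 lay in an H2A.Z-WT region, at Rps7 and Rps16 (22.2%, against 23.4% of the 1340 occurrences at all multi-exon genes). Sequences are shown for Rplp2 and for 3 genes whose H2A.Z-WT region ends upstream of the match, as 30 bases of mm9 on the gene's strand with the match in capitals, which at Rplp2 is the reverse complement.
Rplp2, chr7:148633170-148633199, plus strand, match 88 bp before the start: aagggagcacaCTTCCGGtatgaaggtctt
Rpl8, chr15:76734470-76734499, plus strand, match 20 bp before the start: atggccccgccCCGGAAGataaggctgcgt
Rpl26, chr11:68715061-68715090, plus strand, match 13 bp before the start: aacttacagaaCCGGAAGtcgcgtgtagtt
Rps25, chr9:44215713-44215742, plus strand, match 73 bp before the start: cacccattgccCCGGAAGtactctctcgag

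At Rpl8 the H2A.Z-WT region was chr15:76734151-76734400, at Rpl26 it was chr11:68714451-68714950 and at Rps25 it was chr9:44215151-44215650. Each ended before the 30 bases shown. A match of letters is a description of sequence and does not show that a factor was bound.

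Genes with and without H2A.Z-WT were compared in other features. The 31 genes with H2A.Z-WT had a median of 63 CpG and the 44 without had 67. CCGGAAG was present at 32.3% and 25% of them. Of the ribosomal protein genes 29 held annotated snoRNA genes (38.7%, against 1.38% of all multi-exon genes). H2A.Z-WT was called at 12 of those 29 (41.4%, 25.5 to 59.3) and at 19 of the 46 without (41.3%). Among all multi-exon genes with snoRNA genes it was called at 189 of 269 (70.3%).

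The acidic patch mutant was then compared with the wild type. H2A.Z-AP3 covered 2025 bp and H2A.Z-WT 9710 bp over the 75 genes, so that the mutant covered 20.9% of the length of the wild type, against 14.3% over all multi-exon genes and 13.7% over mitochondrial ribosomal protein genes. Without Rpl7 the value was 17.7%. Without chromosomes 6 and 8 the members stayed at 20.9% and all multi-exon genes were at 10.6%. Of the 31 genes with H2A.Z-WT, 8 also had H2A.Z-AP3 (25.8%), against 35.8% over all multi-exon genes. Of the 38 H2A.Z-WT regions, 7 overlapped an H2A.Z-AP3 region (18.4%, 9.22 to 33.4), against 20.7% over all multi-exon genes, a value inside the interval. These ratios compare lists of unknown depth.

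The mutant was longest at Rpl7, where it covered 425 bp (chr1:16094826-16095250) of the 500-bp H2A.Z-WT region directly upstream of the start. At Rps3a it covered 350 bp (chr3:85946751-85947100) between the start and a 75-bp H2A.Z-WT region farther upstream, without sharing a base with it. At Rpl29 it covered 250 bp (chr9:106331351-106331600) and exceeded the 175-bp H2A.Z-WT region it contained. These are the 3 longest values, and in the last 2 the mutant's region was longer than that of the wild type.

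Rpl15 and Rplp2 were the only genes where H2A.Z-AP3 reached over the start, with 200 bp each, and in both it lay inside a longer H2A.Z-WT region. At Rpl15 the mutant region was chr14:19103776-19103975, in an exon of the gene, and the wild-type region measured 350 bp. Rpl23, Rpl12 and Rpl8 had 150, 125 and 100 bp of H2A.Z-AP3, all upstream of the start and inside an H2A.Z-WT region. The region of Rpl12 lay in an exon of the neighbouring gene Lrsam1, and those of Rpl23 and Rpl8 lay outside protein-coding genes.

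Rps12 and Rpl36a had H2A.Z-AP3 and no H2A.Z-WT region within 2 kb. At Rps12, which hosts 3 snoRNA genes, the region measured 200 bp (chr10:23507251-23507450) with its midpoint 336 bp before the start. At Rpl36a it measured 25 bp, a single bin, on the X chromosome (131119926 to 131119950). Over all 10 genes the H2A.Z-AP3 coverage ran from 25 to 425 bp with a median of 200 bp, the same median as over all multi-exon genes with such a region.

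H3K27me3 touched 2 windows, and in both the nearest start belonged to another gene. At Rpl7 the 425-bp region (chr1:16096276-16096700) lay in an intron of Rdh10, a retinol dehydrogenase gene, 633 bp from that gene's start. At Rpl13a the 200-bp region (chr7:52390951-52391150) lay in an exon of Rpl13a and was nearest to the start of Flt3l, which encodes a hematopoietic growth factor, at 375 bp. No H3K27me3 region was called in the windows of the 59 ribosomal protein genes without a neighbouring start (0%, upper Wilson bound 6.11%), against 20.8% of the multi-exon genes without one.

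The stricter lists gave a further reading. Of the 38 H2A.Z-WT regions 33 held a region of the 1e-12 list (86.8%, against 86.4% over all multi-exon genes), as did 6 of the 10 H2A.Z-AP3 regions (60.0%, against 61.6%) and both H3K27me3 regions. Some stricter regions shared no base with the looser list. For H2A.Z-WT these were at Rpl30 (150 bp) and Rps13 (325 bp), and for H2A.Z-AP3 at Rpl26 (150 bp), Rpl37a (25 bp) and Rps14 (125 bp). Rpl30 and Rps13 had no region in the looser lists. When the lists were joined, 33 of 75 genes thus had H2A.Z-WT (44%, against 69.1% over all multi-exon genes).

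Other genes of the ribosome and of translation were set beside the family. Rpsa and Fau, which encode small subunit proteins but whose names fall outside the rule, had no region. Of 7 paralogs of ribosomal protein genes, 6 had H2A.Z-WT (85.7%, 48.7 to 97.4) with 34.5% of covered bases upstream, and Rps27l and Rpl22l1 had 200 and 25 bp of H2A.Z-AP3.

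Of 17 translation factor genes and other genes with oligopyrimidine mRNAs, 12 had H2A.Z-WT (70.6%, 46.9 to 86.7), none had H2A.Z-AP3, and 1, Eef1d, had H3K27me3 (850 bp). Their H2A.Z-WT lay upstream by 72.6% of covered bases. Of 16 ribosome biogenesis genes 10 had H2A.Z-WT (62.5%, 38.6 to 81.5), with 44.6% upstream, and 3 had H2A.Z-AP3, namely Polr1a (250 bp), which encodes the largest subunit of RNA polymerase I, Nop58 (175 bp) and Rrp9 (175 bp). The backgrounds of 67.2% for H2A.Z-WT and 25.5% for H2A.Z-AP3 lay inside the intervals of the paralogs and the biogenesis genes, and that for H2A.Z-WT inside the interval of the translation genes. For H2A.Z-AP3 the background lay above the interval of the translation genes (0% to 18.4%). Median windows were 8044 bp for the translation genes and 6818.5 bp for the biogenesis genes. They were 4433 bp for the 75 members and 4263 bp over all multi-exon genes. The window of Eef1d was 16303 bp. No test was made between these lists.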

How the data were processed

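ChIP-Seq was performed by the authors on mouse ESCs (3 libraries, 1 per group). Per the labels, single-end adapters were used. The authors aligned reads to mm9 with Bowtie 0.12.3, extended them, and called 25-bp bins enriched over a Poisson background (P threshold 1e-09) and over input. The methods state this for H2A.Z. For H3K27me3 the methods name peaks from earlier work of the group, and whether the deposited list is that one is not given in the sources used here, nor is the 1e-12 threshold. The deposited values are region starts and ends per library. More and longer regions pass a fixed threshold in a deeper library, and depth is unknown.

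GENCODE vM1 starts and mm9 sequence were used with Python 3.11.15, NumPy 2.4.6, SciPy 1.17.1 and Matplotlib 3.10.9. Overlap required 1 bp. The code was tested on simulated regions and words. Named genes were those with H2A.Z-AP3 or H3K27me3, the 5 longest and 5 shortest by H2A.Z-WT, the stalk genes, genes with regions in the 1e-12 list alone, up to 15 without H2A.Z-WT, and set genes of other lists. Some genes are counted but not reported here by name. Beyond this rule, further genes without a region were listed, and genes at printed sequences, CpG extremes and neighbours were named after their values were seen. The members and lists were chosen with earlier results of these data known. Comparisons of unique sequence, CpG, motifs within regions, gaps and other starts were added after seeing the data.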

Additional observations from a re-analysis of the deposited data

How the results depend on the processing

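No paired analysis was possible because each group has 1 library. Of 121 values under alternative settings, 109 stayed within 1.5 times the reported count or within the interval or quartiles of the reported value, 12 moved beyond it and 0 reversed. Some of the 109 had little or no room to move, so the tally is not a measure of robustness. Median coverage of H2A.Z-AP3 and H3K27me3 was 0 bp with quartiles of 0, as only 10 and 2 of the 75 genes had a region. The upstream share of H3K27me3 rested on 1 gene. Across the alternatives for threshold, window, starts, region length and neighbours, H2A.Z-WT was called at 21 to 38 members and H2A.Z-AP3 at 7 to 14. The lowest counts were of the 59 members without a neighbouring start. They are 35.6% and 11.9%, against 64.9% and 24.4% of the multi-exon genes without one. The highest counts were within 5 kb, with 50.7% and 18.7% of the 75, against 71.7% and 29.9% over all multi-exon genes. Among the 24 members with at least 90% unique words, which are fewer genes, the counts were 12 and 2. These are 50% and 8.33%, against 75.2% and 28.8% of the multi-exon genes with such sequence. H3K27me3 was called at 1 member within 1 kb (1.33%, against 17.5% over all multi-exon genes). It was called at 0 of those without a neighbouring start, against 20.8% of the multi-exon genes without one. The settings for unique sequence, oligopyrimidine starts, genes with 1 start and position without neighbours were chosen after seeing the data. The upstream share of H2A.Z-WT moved to 86.3% with unique sequence, 72.7% without neighbouring starts, 100% on oligopyrimidine starts and 83.3% at genes with 1 start. That of H2A.Z-AP3 moved to 92.6% in the 1e-12 lists, 100% with unique sequence and 100% at genes with 1 start. With regions of at least 100 bp, 94.3% of H2A.Z-WT regions held a stricter one. The cause of these moves was not tested, and some of these settings held fewer genes. With the most upstream start of each gene alone, the upstream shares did not change, since that start was in use for them. H2A.Z-WT was then called at 30 members (40%, against 64.1% over all multi-exon genes). The H2A.Z-AP3 length was 23.9% of that of H2A.Z-WT, against 14.9% over all multi-exon genes. Without chromosomes 6 and 8, where no member had a region, the counts of members with a region under the main settings were unchanged. The H2A.Z-AP3 values of all multi-exon genes fell. H2A.Z-AP3 was then called at 13.9% of members, against 22.6% over all multi-exon genes (25.5% with these chromosomes). Its length was 20.9% of that of H2A.Z-WT at members, against 10.6% over all multi-exon genes (14.3% with these chromosomes). The cause was not tested. The depth of the libraries is unknown and limits every comparison between them.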
